A study of Mus musculus with 6 samples.

Results

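In the mouse hippocampus, 10 genes of metal binding and antioxidant defence were followed. They are the metallothionein genes Mt1, Mt2 and Mt3, the antioxidant regulator gene Nfe2l2, and the peroxidase genes Gpx1 and Prdx6. The others are Hmox1, Nqo1, Gclm and Txnrd1, listed here as targets of the regulator. These genes were taken by gene name from the authors' comparison table, where all 10 were found among 30821 genes, and were joined by identifier to the counts and to the FPKM values. The study compared hippocampal transcripts with and without overexpression of the RNA-binding protein TAF15. All mice were C57BL/6J males whose CA1 fields were injected on both sides with an adeno-associated virus (AAV) at the age of 8 weeks. The TAF15 OE group (3 mice) was given TAF15 in a vector whose label names the CaMKIIα promoter, which is active in excitatory neurons. The Control group (3 mice) was given a control AAV, with a promoter and insert not given in the sources used here. According to the labels the time was 31 days for every mouse, and each library holds the RNA of the hippocampus of 1 mouse, so injected and uninjected fields, neurons, glia and vessels were measured together.

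Metallothioneins are small cysteine-rich proteins that bind zinc and copper, and their genes are switched on by metal ions through the factor MTF1 and by glucocorticoids and inflammatory signals. In the mouse brain Mt1 and Mt2 are mainly genes of astrocytes, while Mt3 is the brain form and is also found in neurons. NRF2, the product of Nfe2l2, is held back by KEAP1 and, under oxidative stress, enters the nucleus, pairs with small MAF proteins and binds antioxidant response elements, a site for which BACH1 competes as a repressor. Its targets make glutathione, reduce thioredoxin and quinones and break down heme.

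Total counts ran from 14965464 to 16067000 per library. The overexpressed gene, Taf15, had 908, 958 and 795 counts in the Control mice, against 3897, 3661 and 4477 with TAF15 OE. It was at 59.4 ± 5.64 CPM in Control mice and reached 254 ± 16.1 CPM with TAF15 OE (every level is given as mean ± SD over n = 3 mice per group), where CPM is the count per 1000000 of a library's scaled total. The second principal component (21.7% of the variance) separated 2 libraries, Control 1 and TAF15 OE 1, from the remaining 4. The choroid plexus transcript Ttr measured 89.3 CPM for Control 1, 1356 for TAF15 OE 1 and 3839 to 4477 for the other 4. Leaving out both of these libraries is reported where it ended a call. All listed markers of excitatory neurons, interneurons, astrocytes, microglia, oligodendrocytes and endothelium had counts.

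The promoters show the letters that the known metal and oxidant switches bind, and are printed for the metallothioneins, which lie together but gave unlike counts, and for Nfe2l2, the regulator gene of the set. The sequences come from RefSeq (GRCm38.p6), in which 8 of the 10 genes had an entry, and each run holds the 250 bases before the annotated start, 5′ to 3′. In the metallothionein runs the capitals mark the core of the metal response element, TGCACNC or TGCGCNC on either strand. In the Nfe2l2 run they mark the core of the antioxidant response element, TGACNNNGC on either strand.
Mt1 (chr8:94178839-94179088, plus strand): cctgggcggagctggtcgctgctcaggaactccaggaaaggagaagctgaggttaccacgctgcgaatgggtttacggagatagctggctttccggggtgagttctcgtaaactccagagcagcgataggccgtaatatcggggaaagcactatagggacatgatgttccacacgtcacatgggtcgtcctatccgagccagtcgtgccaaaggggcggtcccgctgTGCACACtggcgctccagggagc
Mt2 (chr8:94172368-94172617, plus strand): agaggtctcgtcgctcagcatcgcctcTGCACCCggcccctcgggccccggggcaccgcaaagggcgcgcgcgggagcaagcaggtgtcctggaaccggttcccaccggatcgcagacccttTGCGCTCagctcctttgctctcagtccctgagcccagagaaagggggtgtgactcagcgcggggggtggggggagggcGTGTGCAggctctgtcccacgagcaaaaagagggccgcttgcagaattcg
Mt3 (chr8:94152357-94152606, plus strand): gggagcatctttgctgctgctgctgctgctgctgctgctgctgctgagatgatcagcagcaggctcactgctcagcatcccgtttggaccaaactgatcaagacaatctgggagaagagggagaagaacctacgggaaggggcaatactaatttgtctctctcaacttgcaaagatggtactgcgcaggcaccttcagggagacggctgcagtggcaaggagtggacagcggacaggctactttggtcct
Nfe2l2 (chr2:75704664-75704913, minus strand): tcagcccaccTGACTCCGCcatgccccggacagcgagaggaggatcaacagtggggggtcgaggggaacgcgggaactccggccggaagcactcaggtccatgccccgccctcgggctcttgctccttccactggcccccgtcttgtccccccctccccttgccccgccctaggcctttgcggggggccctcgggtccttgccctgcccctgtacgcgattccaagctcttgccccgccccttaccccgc

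The motif counts below cover 300 bases, the printed 250 and the 50 after the start. The metal response core occurred 3 times at Mt1, of which 2 matches lay after the annotated start. It occurred 4 times at Mt2 (1 after the annotated start) and once at Mt3, after the annotated start. Of 32817 promoters of the same length, 25.7% held at least 1 such match, 1.97% at least 3 and 0.518% at least 4. The antioxidant response core was found once at Mt2 (TGACTCAGC, 79 to 71 bases before the start), once at Nfe2l2 (TGACTCCGC, 240 to 232 bases before it), once at Gclm (GCACCGTCA on the minus strand, 134 to 126 bases before it) and once at 1 of the 3 starts of Txnrd1. It occurred in 12.4% of all promoters. At Gclm it overlapped 1 of 3 metal response matches. For Mt1, Mt3, Nqo1, Gpx1 and the other 2 starts of Txnrd1 the antioxidant core was not in the window, and sites farther away were not searched. These matches are letters only and no binding was measured. Which starts were in use in these mice was not measured either. A match after an annotated start can therefore lie before another start of the same gene.

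Across the 10 genes, Nfe2l2, Prdx6, Hmox1 and Mt1 were higher in TAF15 OE, by between 1.63-fold and 2.11-fold. Mt3, Nqo1, Gclm, Gpx1 and Txnrd1 did not pass the test, and Mt2 had almost no counts and was not tested. In all, 9 of the 10 passed the filter on low counts and 4 were called higher and 5 in neither direction, where 9.32% of all 16758 tested genes were called higher and 5.95% lower (edgeR quasi-likelihood test, Benjamini-Hochberg adjusted p below 0.05 over all of them). At an unadjusted p below 0.05, 8 of the 9 were higher, against 16.8% of all tested genes. The groups did not overlap, with TAF15 OE above Control, in 7 of the 9, against 19.1% of all tested genes. Scaling by total counts alone gave 6 calls, where 11% of all tested genes were called higher. With scaling on 35 presynaptic genes, 23 of them called lower themselves, all 9 were called, where 42.6% of all tested genes were called higher. The latter moved the median log2 fold change of all tested genes from 0.03 to 0.33.

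**Figure D1:**
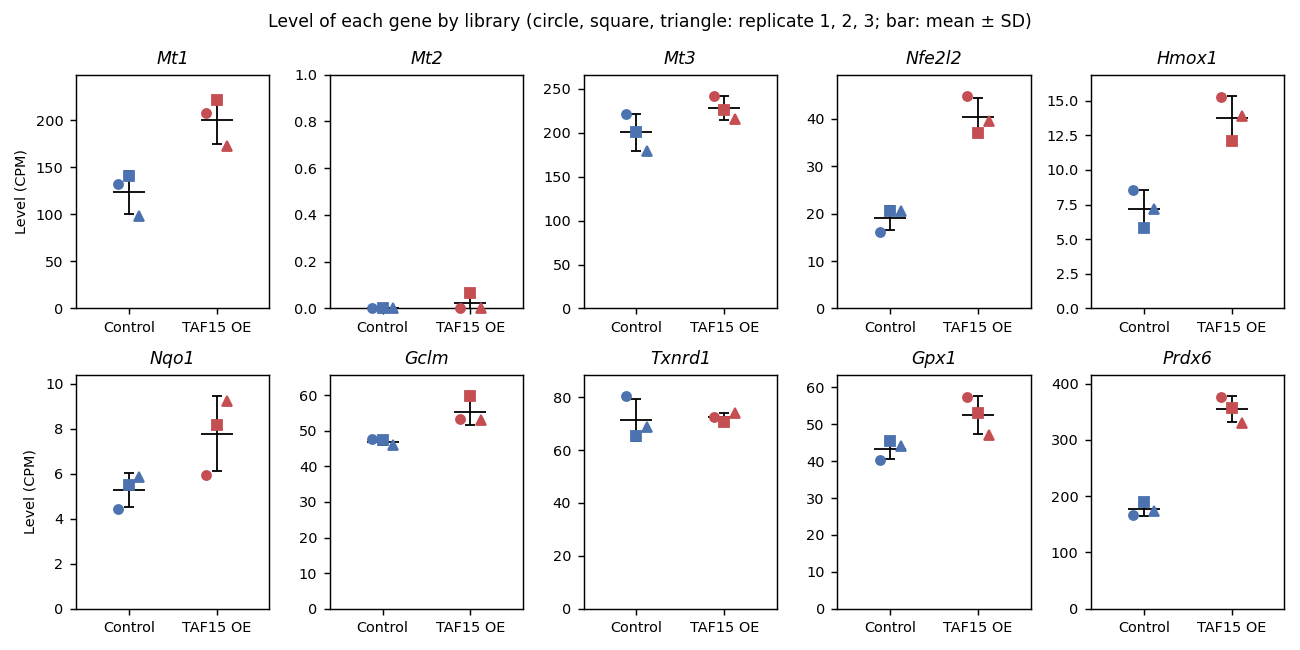
Level of each of the 10 genes in CPM (vertical axes, each from 0) in the 3 Control and 3 TAF15 OE libraries, with the mean and SD as bars. Prdx6, Nfe2l2, Hmox1 and Mt1 show TAF15 OE libraries above all Control libraries, as do Nqo1, Gclm and Gpx1 with smaller fold changes. Txnrd1 and Mt3 overlap, and Mt2 lies at 0 in 5 of 6 libraries.

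Per gene length the metallothioneins Mt3 and Mt1 had the highest levels of the 10. The length taken for them is that of all annotated exonic bases, 1246 for Mt1 and 1066 for Mt3. The lengths of the transcripts present were not measured, and a shorter transcript would have a higher level per length. In Control Mt3 was highest at 185 ± 17.0 FPKM (fragments per kilobase of gene length and 1000000 fragments), followed by Mt1 at 97.2 ± 17.9, Prdx6 at 36.1 ± 2.87 and Gpx1 at 29.5 ± 2.40 FPKM. Txnrd1 (9.90 ± 0.903 FPKM), Gclm (7.32 ± 0.166), Nfe2l2 (4.96 ± 0.744), Hmox1 (4.03 ± 0.690) and Nqo1 (3.33 ± 0.525) came next. Among neighbours in that order, the Control libraries overlapped for Nfe2l2 and Hmox1 and for Hmox1 and Nqo1. With TAF15 OE, Mt3 was again highest at 207 to 227 FPKM, ahead of Mt1 at 163 ± 19.7, Prdx6 at 74.9 ± 3.99 and Gpx1 at 36.9 ± 3.23. Nfe2l2 came next there at 10.8 ± 0.975 FPKM, overlapping Txnrd1 at 10.4 ± 0.308. Gclm followed at 8.92 ± 0.636 FPKM and overlapped Hmox1 at 7.96 ± 0.869, and Nqo1 stood at 5.09 ± 1.15.

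Among the metallothioneins, Mt1 rose, Mt3 did not pass the test and Mt2 gave 1 count in all. Mt1 (ENSMUSG00000031765, chromosome 8, 94179082 to 94180327, plus strand, GRCm38) is the inducible form of most tissues. Control 1, 2 and 3 held 1941, 2116 and 1467 counts of it, and TAF15 OE 1, 2 and 3 held 3245, 3374 and 2841. All TAF15 OE libraries lay above all Control libraries, with Control 3 the lowest of its group and TAF15 OE 3 of its own. The level went from 123 ± 22.5 to 200.5 ± 25.4 CPM, a 1.63-fold rise (log2 fold change 0.70, SE 0.15, edgeR adjusted p = 0.0207). It no longer passed without Control 1 (adjusted p = 0.0589), TAF15 OE 1 (0.0948) or TAF15 OE 2 (0.0647), as well as with Control 1 and TAF15 OE 1 left out together (0.150), and with limma-trend on FPKM without a filter (0.0627), at log2 fold changes of 0.61 to 0.75.

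Mt3 (ENSMUSG00000031760, chromosome 8, 94152607 to 94154146, plus strand) encodes growth inhibitory factor, the brain form. Its counts were 3260, 3023 and 2698 for the Control mice, against 3788, 3441 and 3553 with TAF15 OE. The groups overlapped on the CPM scale, since Control 1 at 221 CPM was above TAF15 OE 3 at 216. The log2 fold change was 0.18 (SE 0.084, 95% interval 0.0013 to 0.37), and edgeR gave an adjusted p = 0.167. Counts of Mt1 per count of Mt3, a ratio that no library scaling changes, came to 0.595, 0.700 and 0.544 for the Control mice. With TAF15 OE they came to 0.857, 0.981 and 0.800, so the groups did not overlap and the share of Mt1 was higher in TAF15 OE. This ratio was not tested.

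Mt2 (ENSMUSG00000031762, chromosome 8, 94172664 to 94173568, plus strand), which lies 5513 bases before Mt1 and encodes a closely related inducible metallothionein, was at 0 counts in each Control library, and at 0, 1 and 0 counts for TAF15 OE 1, 2 and 3. A count of 0 allows up to 3 counts, or between 0.187 and 0.200 per 1000000 of a library's total, for counting error only. The authors' deposited table gives it a log2 fold change of 0.85 and an adjusted p of NA, a value that rests on this 1 count. In the GENCODE M21 annotation, 432 of its 588 exonic bases (73.5%) also lie in an exon of Gm45774 (ENSMUSG00000110588, chromosome 8, 94170748 to 94173412), an antisense gene on the minus strand. Gm45774 itself had 8, 3 and 4 counts in the Control mice, against 6, 8 and 8 with TAF15 OE, so that both genes together gave at most 9 counts in a library. The use of strand in counting is not given in the sources used here, and without strand the reads that lie within the shared bases cannot be told apart.

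How other genes with such an overlap were counted was also measured. Of 148 protein-coding genes with all of their exonic bases inside exons of other genes, 96.6% had at most 3 counts over the 6 libraries. The share was 73.9% of 88 genes at 90% to below 100%, 23.9% of 352 genes at 50% to below 90%, which holds Mt2, 6.90% of 5883 genes above 0% and below 50%, and 27.2% of 15348 genes with no overlap. The median count over the 6 libraries was 53 in the class that holds Mt2, 1703 in that below 50% and 420 with no overlap. None of the 554 stretches of 50 bases in the Mt2 transcripts occurred on the same strand in a transcript of another gene, and 254 occurred on the opposite strand in Gm45774. The part of the overlap in the missing Mt2 counts was not tested, and no change of Mt2 can be read from these counts. Mt4, the fourth gene of the cluster and a form of stratified epithelia, had 0 counts in all 6 libraries.

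Nfe2l2 (ENSMUSG00000015839, chromosome 2, 75675513 to 75704641, minus strand), which encodes NRF2, rose in TAF15 OE. Control 1, 2 and 3 held 238, 311 and 309 counts of it, and TAF15 OE 1, 2 and 3 held 702, 562 and 652. Even the lowest TAF15 OE library was above every Control library, and Control 1 was the lowest of all. The level went from 19.1 ± 2.57 to 40.5 ± 4.03 CPM, a 2.11-fold rise (log2 fold change 1.08, SE 0.12, edgeR adjusted p = 4.24e-04). The call held with each library left out, with a largest adjusted p = 0.00429. NRF2 is controlled largely as a protein, by its breakdown, so its transcript level is not a measure of its activity.

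Of the 4 genes listed here as NRF2 targets, Hmox1 rose and Nqo1, Gclm and Txnrd1 did not pass the test. The peroxidases and metallothioneins were listed apart, and whether NRF2 acts on them was not tested. Hmox1 (ENSMUSG00000005413, chromosome 8, 75093621 to 75100589, plus strand) encodes heme oxygenase 1, which breaks down heme and in the brain is prominent in microglia and macrophages. It had 126, 88 and 108 counts in the Control mice, against 239, 184 and 229 with TAF15 OE. The groups were well apart. From 7.20 ± 1.36 CPM the level rose to 13.8 ± 1.59, a 1.91-fold difference (log2 fold change 0.93, SE 0.17, edgeR adjusted p = 0.00463), and the call held with each library left out.

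Nqo1 (ENSMUSG00000003849, chromosome 8, 107388225 to 107403206, minus strand), the quinone reductase gene often read as the marker of NRF2 activity, had 65, 83 and 88 counts in the Control mice, against 93, 124 and 152 with TAF15 OE. The lowest TAF15 OE library, at 5.94 CPM, lay just above the highest Control library, at 5.86. With the fewest counts of the tested genes it had the widest interval, a log2 fold change of 0.56 with 95% limits of 0.11 and 1.01 (edgeR adjusted p = 0.0898). Without TAF15 OE 1 it passed (0.70, adjusted p = 0.0313). Gclm (ENSMUSG00000028124, chromosome 3, 122245557 to 122270732, plus strand), the modifier subunit of the enzyme that limits glutathione synthesis, had 700, 714 and 688 counts in the Control mice, against 832, 908 and 874 with TAF15 OE. Its groups did not overlap, yet the difference was small: 46.9 ± 0.932 CPM against 55.3 ± 3.81 (log2 fold change 0.24, 95% interval 0.065 to 0.41, edgeR adjusted p = 0.0652). With total counts as the only scaling it passed (adjusted p = 0.0338). Of its exonic bases 4.71% are shared with other genes, Gm17494 on the other strand and the pseudogene Gm6061. Of the 6349 stretches of 50 bases in its transcripts, 3.92% also occurred on the same strand in transcripts of other genes. Ppia shared the most of these (3.24%). A small part of the Gclm counts is therefore uncertain.

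Txnrd1 (ENSMUSG00000020250, chromosome 10, 82833951 to 82897712, plus strand), the cytosolic thioredoxin reductase and a selenoprotein, had close levels in both groups. It had 1184, 987 and 1030 counts in the Control mice, against 1136, 1073 and 1219 with TAF15 OE. The TAF15 OE libraries lay within the range of the Control libraries, at 71.5 ± 7.88 and 72.4 ± 1.73 CPM. The log2 fold change was 0.018 (SE 0.084, edgeR adjusted p = 0.917), with 95% limits of -0.17 and 0.20, and its sign turned under 7 alternatives, given with the processing alternatives. Those limits lie below the estimates of Nfe2l2, Hmox1, Prdx6 and Mt1, but the differences between genes were not tested.

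Of the peroxidases, Prdx6 rose and Gpx1 did not pass the test. Prdx6 (ENSMUSG00000026701, chromosome 1, 161240112 to 161251219, minus strand) encodes peroxiredoxin 6, which reduces peroxides of phospholipids with glutathione and in the brain is mainly a protein of astrocytes. It had 2464, 2847 and 2607 counts in the Control mice, against 5890, 5435 and 5446 with TAF15 OE. Every TAF15 OE library lay far above every Control library. The level went from 177 ± 11.0 to 355 ± 23.0 CPM, a 2.01-fold rise (log2 fold change 1.01, SE 0.075, edgeR adjusted p = 3.42e-05), which held with each library left out. Gpx1 (ENSMUSG00000063856, chromosome 9, 108338903 to 108340343, plus strand) encodes the main cytosolic glutathione peroxidase, a selenoprotein. It had 592, 686 and 662 counts in the Control mice, against 897, 807 and 774 with TAF15 OE. The levels of 43.3 ± 2.74 and 52.5 ± 5.19 CPM came near each other, with TAF15 OE 3 at 47.0 next to Control 2 at 45.5. The log2 fold change was 0.28 (95% interval 0.074 to 0.48, edgeR adjusted p = 0.0675). Gpx1 passed without TAF15 OE 3 (0.34, adjusted p = 0.0450) and with total counts as the only scaling (0.32, adjusted p = 0.0389).

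**Figure D2:**
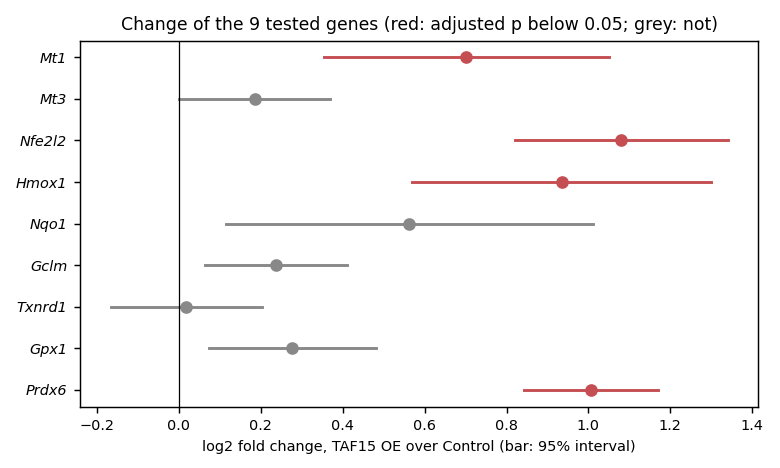
Log2 fold change of TAF15 OE over Control (horizontal axis) for the 9 tested genes, with the 95% interval as a bar and red for an adjusted p below 0.05. Nfe2l2 at 1.08, Prdx6 at 1.01, Hmox1 at 0.93 and Mt1 at 0.70 are called, and Txnrd1 at 0.018 lies at the line of no change.

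The authors' deposited table gives the same 4 genes an adjusted p below 0.05, at log2 fold changes of 1.05 for Nfe2l2 (2.87e-11), 0.98 for Prdx6 (8.99e-27), 0.91 for Hmox1 (2.84e-04) and 0.67 for Mt1 (8.65e-06). In the authors' deposited table Txnrd1 is at -0.013, and the adjusted p of Nqo1, Gpx1, Gclm and Mt3 lies between 0.146 and 0.318. For all tested genes of the set, these values equal those of DESeq2 run here on the same counts, to the digits compared. They are therefore not a result apart from that processing alternative.

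Among other regulators of the NRF2 pathway, Bach1, Maff and Amer1 rose. They were 3 of 19 tested, the other 16 did not pass, and the median log2 fold change was 0.03, as over all tested genes, of which 15.3% were called in either direction. Bach1, the repressor that competes for NRF2 sites, rose from 16.1 ± 0.747 to 25.4 ± 1.72 CPM (log2 fold change 0.65, SE 0.10, edgeR adjusted p = 0.00279). Maff, a small MAF partner, rose by 1.01 from a low level of 1.85 ± 0.016 CPM (adjusted p = 0.0285), and Amer1, whose product binds KEAP1, by 0.48 (adjusted p = 0.0481). The call of Maff was lost without Control 1, 2 or 3, TAF15 OE 1 or TAF15 OE 3, and that of Amer1 without any 1 of the 6 libraries. The count of 3 fell to 2 without TAF15 OE 2 and to 1 without any other single library. Keap1, the anchor that NRF2 is held by, was among the 16, chosen for mention after its value was seen (log2 fold change -0.12, adjusted p = 0.346).

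Among other NRF2 targets, 6 of 38 tested rose and 32 did not pass, with a median log2 fold change of 0.13. Over all tested genes, 9.32% were called higher. The count of 6 fell to 3 without Control 1, Control 2 or TAF15 OE 1 and to 1 without TAF15 OE 2. The export pump gene Abcc3 went from 4.95 ± 1.16 to 9.87 ± 1.53 CPM (log2 fold change 0.99, SE 0.20, edgeR adjusted p = 0.00845). The ferritin light chain gene Ftl1 rose by 0.56 (adjusted p = 0.0162), and G6pdx, the first enzyme of the pentose phosphate pathway and a source of NADPH, by 0.39 (adjusted p = 0.0177). The call of Ftl1 was lost without Control 1 or TAF15 OE 2, and that of G6pdx without Control 2, Control 3, TAF15 OE 1 or TAF15 OE 2. Gclc, the catalytic partner of Gclm, was chosen after its value was seen and did not pass (-0.051, adjusted p = 0.683).

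Among 13 other tested peroxidases, catalase and superoxide dismutases, 3 rose, 1 fell and 9 did not pass, with a median of 0.10. Beside this list and the next, 9.32% of all tested genes were called higher and 5.95% lower. Prdx1, the main cytosolic peroxiredoxin and an NRF2 target, rose from 80.7 ± 6.66 to 109 ± 3.04 CPM (log2 fold change 0.44, SE 0.075, edgeR adjusted p = 0.00395). The secreted peroxidase gene Gpx3 rose by 0.72 (adjusted p = 0.0247) and catalase, Cat, by 0.32 (adjusted p = 0.0382). The one that fell, outside the naming rule, was the mitochondrial gene Prdx5 (-0.25, adjusted p = 0.0491). Gpx3 lost its call without Control 1, Control 3, TAF15 OE 2 or TAF15 OE 3, and Cat without any library but TAF15 OE 3. The count that rose was 1 without Control 1, Control 3 or TAF15 OE 2, and the count that fell was 0 without any library but Control 3. Of 34 other glutathione and thioredoxin enzymes, 3 rose, 2 fell and 29 did not pass, with a median of 0.10. Txnip, which binds and inhibits thioredoxin, rose from 17.8 ± 2.64 to 33.0 ± 3.15 CPM (0.89, SE 0.12, adjusted p = 0.00139), and the sestrin gene Sesn3 by 0.36 (adjusted p = 0.0248). Gss, glutathione synthetase, fell by 0.36 (adjusted p = 0.0301). The call of Sesn3 was lost without Control 1, Control 2, TAF15 OE 1 or TAF15 OE 2, and that of Gss without any library but TAF15 OE 1. Without TAF15 OE 2 only 1 of these enzymes rose, and without any library but TAF15 OE 1 none fell.

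**Figure D3:**
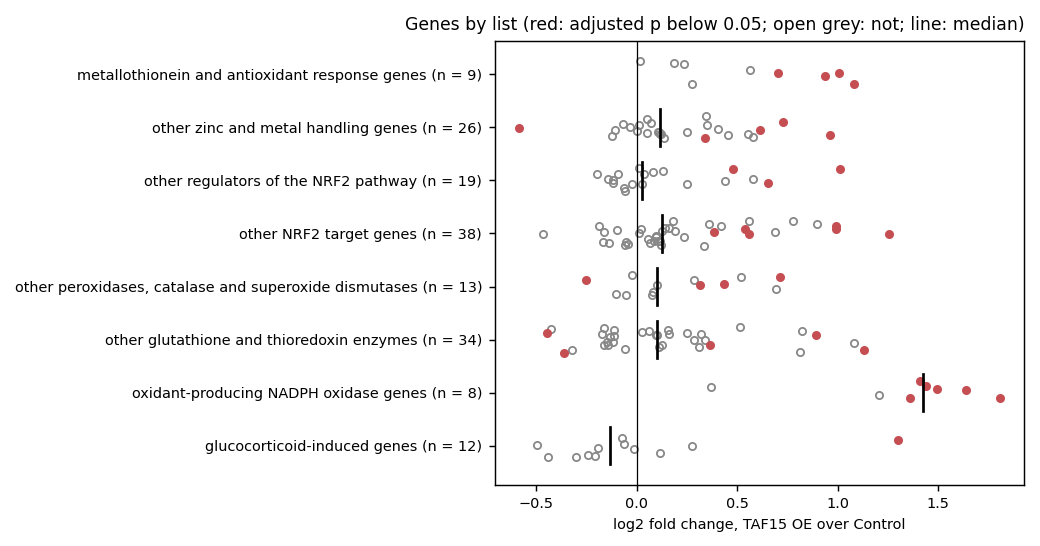
Log2 fold change of TAF15 OE over Control (horizontal axis) of every tested gene of the 10 and of 7 related lists, red for an adjusted p below 0.05 and with a black line at the median of each related list. The NADPH oxidase genes lie at a median of 1.43, while the medians of the other lists lie between -0.13 and 0.13.

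Genes of the oxidant-producing NADPH oxidase of phagocytes and its relatives were higher in TAF15 OE. Of 14 listed 8 were tested, of which 6 rose and 2 did not pass, with a median log2 fold change of 1.43. The share called higher over all tested genes was 9.32%. The count of 6 fell to 3 without Control 3, and to 3 with limma-trend on FPKM without a filter. On the log2 scale Cyba rose by 1.64 (edgeR adjusted p = 0.00211) and Ncf4 by 1.81 (adjusted p = 0.00329). They encode subunits of the oxidase of myeloid cells. The summed microglia markers were at 769 to 818 CPM for Control libraries, against 1538 to 2513 with TAF15 OE, and their part in this was not tested.

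Among zinc and metal handling genes, 4 of 26 tested rose, 1 fell and 21 did not pass, with a median log2 fold change of 0.12. Beside this list and the glucocorticoid list below, 9.32% of all tested genes were called higher and 5.95% lower. The count of 4 fell to 1 without Control 1 or Control 2 and to 2 without TAF15 OE 2 or TAF15 OE 3. The gene that fell was Slc30a3, the transporter that loads zinc into glutamatergic synaptic vesicles, from 96.2 ± 9.20 to 64.1 ± 0.991 CPM (log2 fold change -0.59, SE 0.079, edgeR adjusted p = 0.00126). Slc39a12, a zinc importer, stood between 41.9 and 51.9 CPM in the Control libraries and between 68.6 and 73.7 with TAF15 OE, and rose (0.61, SE 0.088, adjusted p = 0.00163), and the importer gene Slc39a1 by 0.34 (adjusted p = 0.0192), a call lost without Control 1, Control 2, TAF15 OE 1 or TAF15 OE 2. Mtf1, the gene of the metal-sensing factor itself, was chosen after its value was seen and did not pass (0.050, adjusted p = 0.780). Among 12 glucocorticoid-induced genes, 1 rose and the median was -0.13. That gene was Cdkn1a, which is also induced by p53 (1.30, SE 0.15, adjusted p = 6.75e-04), while Klf9 (-0.19, adjusted p = 0.115) and Zbtb16 (-0.44, adjusted p = 0.136) did not pass. Zbtb16 was called lower with DESeq2 (adjusted p = 0.0122), with edgeR on unfiltered counts (adjusted p = 7.47e-06) and without Control 3 (-0.59, adjusted p = 0.0227), where 3 of the 12 were called lower. Klf9 was called lower on unfiltered counts (adjusted p = 0.0467), and its sign turned under scaling on presynaptic genes. Without both Control 1 and TAF15 OE 1, the calls of Slc39a1, Maff, Amer1, Ftl1, Cat, Sesn3 and Gss were lost. Over all calls of named genes lost with 1 library left out, the adjusted p lay between 0.0513 and 0.162. Amer1 and Cat also missed the threshold with DESeq2, with its size factors in edgeR, with limma-voom and with limma-trend on FPKM, and Gss with limma-trend on FPKM, with total counts as the only scaling and with scaling on presynaptic genes. With limma-trend on FPKM without a filter, Maff, Abcc3, Ftl1, Gpx3 and Sesn3 missed it too, at adjusted p of 0.0754 to 0.102, and Maff also with the filter (0.0505).

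By level in each library, the genes most like Mt1 were Tfap4, Bhlhe41 and Gm26873, whose log2 CPM, centred over the 6 libraries, differed from that of Mt1 by a root mean square of 0.044, 0.079 and 0.087. Bhlhe41, a repressor of the clock and of other genes, rose by 0.73 (edgeR adjusted p = 0.00219), and Tfap4 (0.66, adjusted p = 0.0718, or 0.0445 with the replicate number as a block) and Gm26873 (0.77, adjusted p = 0.109) did not pass. For Mt3 they were Gm9833, Lekr1 and C330018D20Rik, at 0.024, 0.031 and 0.033. In each case 16749 genes were compared, and closeness over 6 libraries is a description only.

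Among cell type markers, 9 of 14 for astrocytes, 16 of 18 for microglia and 8 of 10 for oligodendrocytes rose in TAF15 OE, while 5 of 10 for excitatory neurons and 3 of 10 for interneurons fell. Beside these and the marker lists below, 9.32% of all tested genes were called higher and 5.95% lower. In bulk tissue a change in the number of cells of a type and a change in RNA per cell cannot be told apart. The summed level of the astrocyte markers was 5593 to 6888 CPM for Control libraries, against 9317 to 10214 with TAF15 OE. Slc1a2, the glutamate transporter, stood at 2823 ± 467 and 3585 ± 147 CPM and did not pass (0.34, edgeR adjusted p = 0.0541). It passed with total counts as the only scaling (0.0178), scaling on presynaptic genes (1.46e-04), no filter (0.00323), DESeq2 (0.0217), limma-trend on FPKM at a pseudocount of 0.1 (0.0483), the replicate number as a block (0.00895) and without Control 1 (0.48, adjusted p = 0.00645). Gfap, the filament gene of reactive astrocytes, rose from 617 ± 66.1 to 2588 ± 114 CPM (adjusted p = 4.97e-07). Of 15 reactive astrocyte markers, 13 reached the filter's level of 0.656 CPM in all 3 Control libraries, and 11 of these rose. The other 2 entered with the help of TAF15 OE libraries, and no count of calls is read from them. The 15 had a summed level of 764 to 891 CPM for Control libraries, against 3140 to 3540 with TAF15 OE. Gfap is in both astrocyte lists and makes up most of this sum, so the 2 sums are not separate results. Serpina3n rose by 1.86 (edgeR adjusted p = 5.73e-05). The microglia markers had a summed level of 769 to 818 CPM for Control libraries, against 1538 to 2513 with TAF15 OE. C1qa, a complement gene, rose by 1.59 (adjusted p = 0.0259, a call lost without Control 1, 2 or 3 or TAF15 OE 3, with no filter and with the replicate block). The protease gene Ctss did not pass in edgeR (1.53, adjusted p = 0.0707) but passed with DESeq2 (0.00319), limma-voom (0.0105), limma-trend on FPKM (0.0428 and 0.0440), scaling on presynaptic genes (0.0191) and without TAF15 OE 1 (1.04, adjusted p = 7.82e-06). The excitatory neuron markers had a summed level of 8855 to 10731 CPM for Control libraries, against 6013 to 7507 with TAF15 OE. Camk2a (-0.55, adjusted p = 0.0109) and Slc17a7 (-0.48, adjusted p = 0.00427) were the most abundant of these. The call of Slc17a7 was lost with scaling on presynaptic genes (-0.17, adjusted p = 0.0543), where 3 excitatory markers fell, and that of Camk2a with limma-trend on FPKM without a filter (0.0741). Slc17a7 is itself among the 35 genes of that scaling, which draws its fold change toward 0, so this lost call is not a separate check.

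The 8 oligodendrocyte markers that rose include the myelin gene Mbp (0.45, edgeR adjusted p = 0.00981), and the count was 5 without Control 1, Control 2 or TAF15 OE 1 and 2 without TAF15 OE 2. Of 10 endothelial markers 4 rose, among them Slco1a4 (0.42, adjusted p = 0.0184), while Flt1 did not pass (0.61, adjusted p = 0.193). The endothelial count was 4 without Control 3, 2 without TAF15 OE 1, 0 without Control 2 and 1 without each of the others. Of 7 tested pericyte and smooth muscle markers 4 rose, among them Rgs5 (0.46, adjusted p = 0.0448) and Vtn (0.54, adjusted p = 0.0121). That count was 3 without TAF15 OE 2, 2 without Control 3 or TAF15 OE 1, 1 without Control 1 or TAF15 OE 3 and 0 without Control 2. Of 9 tested macrophage and monocyte markers 1 rose (2 without TAF15 OE 1), at a summed level of 33.1 to 46.0 CPM for Control libraries, against 90.4 to 187 with TAF15 OE, and neither Lyz2 (1.96, adjusted p = 0.0539) nor Mrc1 (0.49, adjusted p = 0.302) passed. The 10 lymphocyte markers had a summed level of 4.01 to 5.20 CPM for Control libraries, against 11.9 to 28.7 with TAF15 OE. Of the 7 that were tested, 6 reached the filter's level of 0.656 CPM in fewer than 3 Control libraries and so entered through the TAF15 OE libraries, and no count of calls is read from them. The one that reached it in all Control libraries was Cd4 (1.89, adjusted p = 0.0248). The 3 interneuron markers that fell (1 without Control 2) include Cck (-0.58, adjusted p = 0.00111), while Gad1 did not pass (-0.14, adjusted p = 0.268).

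Red blood cells also hold peroxiredoxin and glutathione peroxidase, and their markers summed to 1.87 to 12.4 CPM for Control libraries, against 5.19 to 6.62 with TAF15 OE. The 3 that were tested did not pass, with Hbb-bs at 0.039 (edgeR adjusted p = 0.980) and Hba-a1 at 0.15 (adjusted p = 0.922). Choroid plexus markers summed to 147 to 4703 CPM for Control libraries, against 1554 to 5054 with TAF15 OE, and the 8 tested did not pass, with Ttr at 0.28 (adjusted p = 0.926) and Kl at 0.22 (adjusted p = 0.887).

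Per 1000 CPM of summed astrocyte markers, Mt1 stood at 19.1, 25.1 and 17.0 CPM for the Control mice, against 20.3, 22.9 and 18.5 with TAF15 OE, so the groups overlapped and the ratio of means was 1.01. Prdx6 stood at 24.3, 33.8 and 30.2 for the Control mice, against 36.8, 36.8 and 35.5 with TAF15 OE, without overlap, at a ratio of 1.24. The ratio of Nfe2l2 was 1.30, without overlap, and that of Hmox1 1.20, with overlap. With Gfap left out of the markers, a choice made after seeing the data, these ratios were 1.23 for Mt1, with overlap, and 1.51 for Prdx6, 1.59 for Nfe2l2 and 1.47 for Hmox1, all without overlap.

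Per 1000 CPM of summed microglia markers the groups overlapped for all 4 genes, at ratios of 0.720 for Mt1, 0.882 for Prdx6, 0.920 for Nfe2l2 and 0.833 for Hmox1. The genes that had not passed were lower against the full astrocyte list, without overlap, for Mt3 (0.707), Gpx1 (0.745), Gclm (0.731) and Txnrd1 (0.632), and Nqo1 overlapped (0.913). With Gfap left out, Gpx1 (0.911) and Gclm (0.894) overlapped as well. These ratios are descriptions of 3 mice against 3, and the part of the marker changes in the levels of the 10 genes was not tested.

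**Figure D4:**
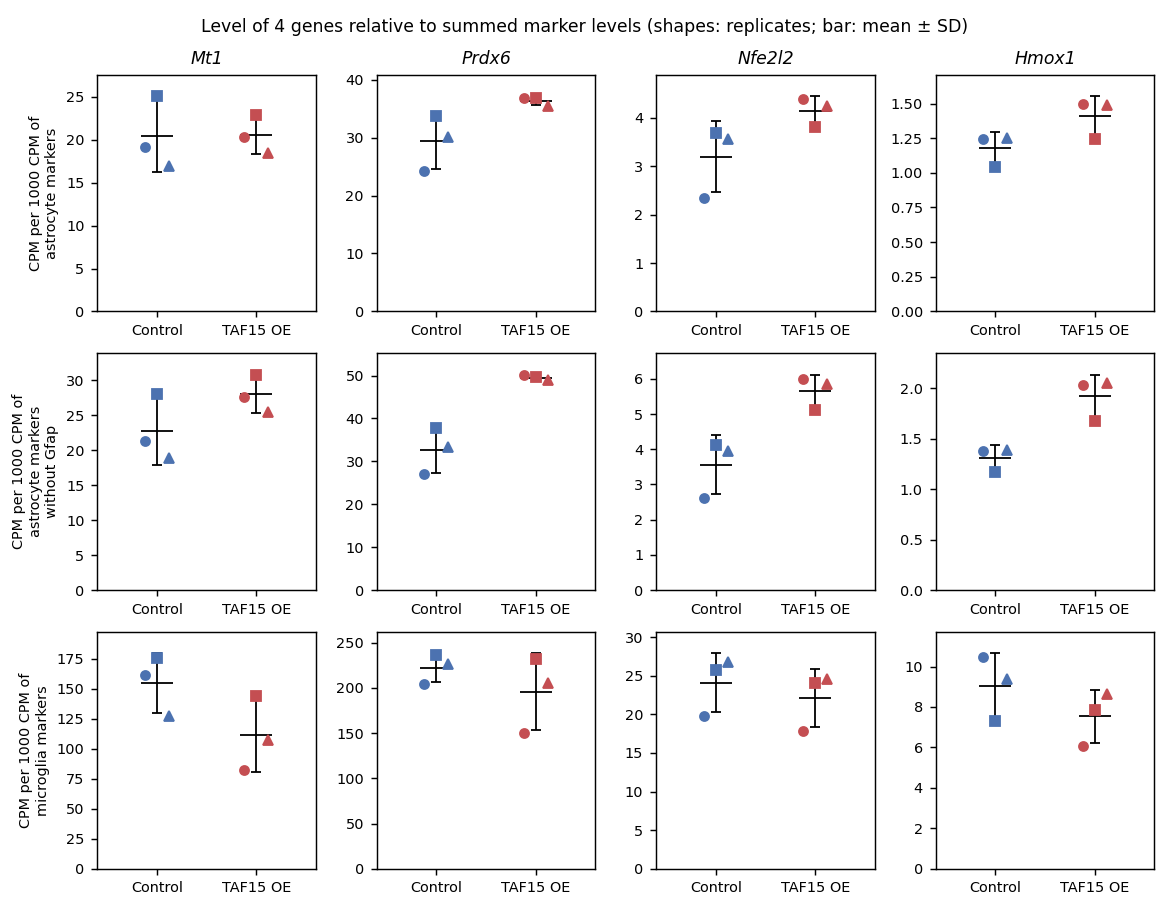
CPM of Mt1, Prdx6, Nfe2l2 and Hmox1 per 1000 CPM of summed astrocyte markers, of the same markers without Gfap and of microglia markers (vertical axes, each from 0), by library with mean and SD. Against astrocyte markers Mt1 overlaps between groups at a ratio of 1.01 while Prdx6 does not at 1.24, and against microglia markers all 4 overlap.

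**Figure D5:**
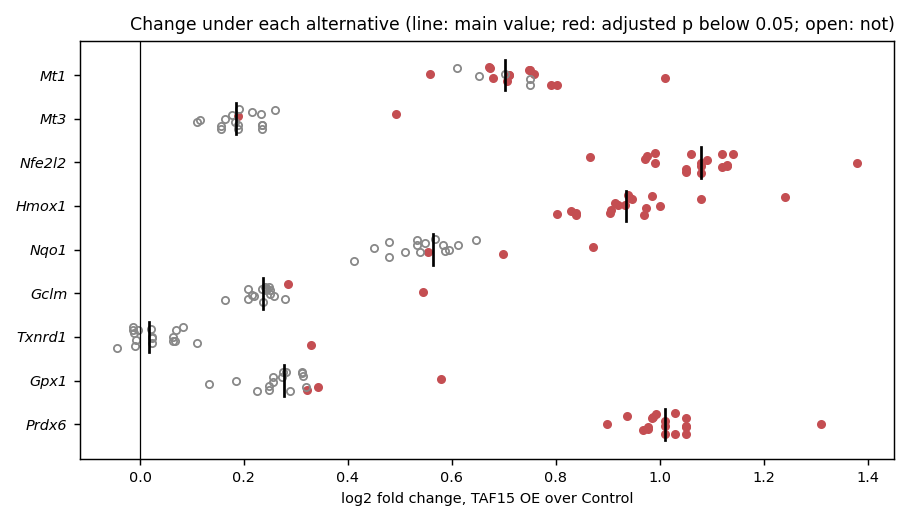
Log2 fold change (horizontal axis) of each tested gene under the alternatives of normalization, filter, test and left-out library, red for an adjusted p below 0.05, with a black line at the main value. Nfe2l2, Prdx6 and Hmox1 stay called in every point shown, Mt1 loses its call in several, and Txnrd1 lies on both sides of 0.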

How the data were processed

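RNA of 6 hippocampi was sequenced, 3 Control and 3 TAF15 OE, 1 mouse per library. The submitters' processing notes name CASAVA, Bowtie2 2.2.3, HISAT2 2.1.0, TopHat2 and the build GRCm38. Which counter, annotation release and strand setting were used is not given in the sources used here. Raw counts per Ensembl gene for 52550 genes and FPKM values per gene were deposited by the authors. The authors' deposited comparison table of 30821 genes holds the same counts, a normalised mean signal, a fold change ratio, its log2 and p-values from a test that its header does not name. For the tested genes of the set, its log2 fold change and adjusted p equal those of DESeq2 run here, to the digits compared. Its adjusted p is NA for 13762 genes.

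From the counts, edgeR 4.0.16 in R 4.3.3 was run with TMM scaling, filterByExpr (minimum count 10, total 15) and the robust quasi-likelihood F-test on group alone. P-values were adjusted by Benjamini-Hochberg over 16758 tested genes and called below 0.05. SE is the log2 fold change over the root of F. Intervals are at 95% and cover the spread between these mice. No library pair of 1 group agreed within counting noise (chi-square per degree of freedom at least 4.77). The steps were first tested on simulated data. DESeq2 1.42.0 and limma 3.58.1 (voom on counts, and trend on log2 FPKM at pseudocounts of 1 and 0.1) served as alternatives, with other scalings, filters and left-out libraries. Among named cell type markers, those of astrocytes, reactive astrocytes, microglia and excitatory neurons were followed through all alternatives. For some other cell type lists, only the counts called with 1 library left out are given.

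The 10 genes and all lists were chosen with earlier results of these data known. The rule for named genes took all 10 and Taf15, the 3 genes of smallest p of each pathway list, the 2 most abundant of each cell type list, and the 3 genes most like Mt1 and Mt3 each. Some genes that this rule took are not reported here. Dividing by astrocyte markers without Gfap was added after seeing the data.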

Additional observations from a re-analysis of the deposited data

How the results depend on the processing

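Of the 10 genes, Nfe2l2 and Prdx6 kept their direction and call under all 19 alternatives, and Hmox1 under all but one that asked for a log2 fold change of 1 or more in size. Members called higher were 4, and became 9 with scaling on presynaptic genes and 2 with the limit of 1, and ranged from 3 to 5 with 1 library left out. Txnrd1 turned sign with DESeq2 size factors (-0.0048), no filter (-0.012), DESeq2 (-0.013) and 1 library left out (-0.044 to 0.11, negative without Control 2 at -0.044, Control 3 at -0.013, TAF15 OE 1 at -0.0089 and TAF15 OE 3 at -0.0069). Klf9 turned to 0.11 with scaling on presynaptic genes. The cause was not tested. All genes called numbered 2559, of which 1562 were higher and 997 lower, a higher share of 61.0%. Of the calls, 1838 of 2554 were higher with total counts alone, and the share was 98.3% with scaling on presynaptic genes and 71.1% with limma-trend on log2 FPKM.

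With scaling on presynaptic genes, 7264 genes were called, 7139 higher and 125 lower. With limma-trend on log2 FPKM, all genes called were 1551 (449 lower) at a pseudocount of 1, 1630 (473 lower) at 0.1, and 669 (496 higher, 173 lower) without a filter. With no filter on counts, all genes called, lower, were 1568. With the limit of 1, 557 were called, 534 higher and 23 lower. With 1 library left out, all genes called ranged from 1331 (without TAF15 OE 2) to 2501 (without TAF15 OE 1), those higher from 877 to 1293 and those lower from 365 to 1208. With the replicate number as a block, all genes called were 3291 and members called higher were 6 (11.4% of all tested genes were called higher), with Mt3 (adjusted p = 0.0460) and Nqo1 (adjusted p = 0.0425) added. Same-numbered libraries deviated together with correlations of 0.0776 to 0.126. Differently numbered libraries were not compared in this way, so these values cannot tell whether the numbers pair the mice. The main test used group alone. No change of Mt2 can be read, at 1 count in all, and the cause of this low count was not tested.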
